A study of Mus musculus with 13 samples.

Results

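Toll-like receptor transcripts were followed with those of the coreceptors Cd14 and Ly96 in myeloid cells sorted from the brains of amyloid-bearing mice with and without Trem2. The 10 genes were taken by symbol from the 52636 genes of the deposited tables: Tlr1, Tlr2, Tlr3, Tlr4, Tlr6, Tlr7, Tlr9, Tlr13, Cd14 and Ly96. Each has a row of its own, and each passed the filter on low counts that left 17086 genes to test. Toll-like receptors are membrane proteins that recognise microbial products, and some molecules released by damaged cells, and signal through adaptors with a TIR domain to NF-κB and interferon regulatory factors. TLR4 needs MD-2, the product of Ly96, to bind lipopolysaccharide (LPS), which CD14 delivers to it, whereas TLR2 pairs with TLR1 or TLR6 at the cell surface to recognise lipopeptides. TLR3, TLR7, TLR9 and TLR13 sense nucleic acids inside endosomes. Microglia, the resident macrophages of the brain, are known to carry much of the receptor family.

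All mice carried the PS2APP transgenes, human presenilin 2 and amyloid precursor protein genes with familial Alzheimer's disease mutations that lead to β-amyloid plaques, and no mice without the transgenes were analysed here. The comparison asks what loss of Trem2, a lipid-sensing receptor of microglia, does to the transcripts of these cells in the presence of plaques. PS2APP;Trem2wt mice (labelled PS2APP) numbered 7, with 5 females and 2 males, and PS2APP;Trem2ko mice (labelled PS2APP;Trem2KO) numbered 6, with 5 females and 1 male. All were between 14 and 15 months old, and each mouse was 1 replicate. The null allele of Trem2 is constitutive, so that all cells of the knock-out mice carried it. It was made in C57BL/6N and crossed into PS2APP mice on C57BL/6J. Live CD11b+ CD45+ cells without Ly6g or Ccr2 at their surface were collected from cortex and hippocampus dissociated in the cold.

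Total counts per mouse ranged from 26120961 to 114857155 in PS2APP;Trem2wt (median 35201380) and from 41567025 to 120569609 in PS2APP;Trem2ko (median 55371726). Levels are given as nRPKM, the authors' reads per gene length and library total (RPKM) adjusted by a size factor. Being per length, it allows genes to be compared, but it does not make up for reads left out because they align to more than 1 place. Trem2 itself was at 1044 ± 141 nRPKM (SD, n = 7) in PS2APP;Trem2wt and at 0.887 ± 0.734 nRPKM (SD, n = 6) in PS2APP;Trem2ko mice. The summed level of 10 microglia markers lay between 14672 and 18213 nRPKM in PS2APP;Trem2wt and between 15369 and 17216 nRPKM in PS2APP;Trem2ko mice. Of these, Cx3cr1 alone was called between genotypes in edgeR (log2 fold change -0.49). Sums for 8 markers of border macrophages lay between 11.6 and 54.7 nRPKM over all mice, and those for 7 monocyte markers between 2.7 and 23.3 nRPKM. Markers of dendritic cells, lymphocytes, astrocytes, oligodendrocytes, neurons and endothelial cells summed to at most 89.5 nRPKM per list in any mouse. The sum of 7 neutrophil markers was between 13.1 and 246 nRPKM in PS2APP;Trem2wt and between 0.149 and 40.3 nRPKM in PS2APP;Trem2ko mice. The 4 neutrophil markers that could be tested all had negative log2 fold changes, and none reached an adjusted p of 0.05 in edgeR, voom+limma or DESeq2, although 2 had an unadjusted p at or under 0.05 in edgeR. In sorted bulk cells, fewer cells of a type and less RNA per cell cannot be told apart.

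Tlr1 and Tlr6 lie beside each other on chromosome 5 of GRCm38, Tlr1 from 64924679 to 64933563 and Tlr6 from 64952031 to 64960097, both on the minus strand. Their coding sequences were identical at 74.1% of 2374 aligned bases, and the longest stretch without a mismatch ran over 229 bases of coding exon. It is shown here because 50-base reads that fall inside it cannot be given to either gene, and the authors counted only reads that aligned to 1 place. Capitals mark the shared stretch and lower case the 15 bases on each side, written 5′ to 3′ on the coding strand, at chr5:64925522-64925780 for Tlr1 and chr5:64953813-64954071 for Tlr6.
Tlr1: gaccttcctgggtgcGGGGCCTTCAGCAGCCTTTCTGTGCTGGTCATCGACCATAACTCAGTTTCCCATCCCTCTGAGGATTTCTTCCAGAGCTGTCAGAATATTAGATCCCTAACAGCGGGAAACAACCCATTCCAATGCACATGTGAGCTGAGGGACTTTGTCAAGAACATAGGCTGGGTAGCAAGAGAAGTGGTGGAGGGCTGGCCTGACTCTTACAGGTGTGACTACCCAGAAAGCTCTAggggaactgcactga
Tlr6: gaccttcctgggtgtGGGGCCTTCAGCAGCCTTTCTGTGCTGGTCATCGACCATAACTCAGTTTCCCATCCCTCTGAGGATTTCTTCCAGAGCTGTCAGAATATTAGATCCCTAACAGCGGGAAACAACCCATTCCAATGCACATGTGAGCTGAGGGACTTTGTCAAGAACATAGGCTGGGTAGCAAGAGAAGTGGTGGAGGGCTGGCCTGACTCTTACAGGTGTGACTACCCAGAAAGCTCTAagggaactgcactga
Of the 50-base words in the Tlr1 transcripts, 15.4% also occur in another gene, as do 12.3% of those of Tlr6, and 454 of these words are shared between Tlr1 and Tlr6. Reads from these words may be missing from the counts of both genes. TLR2, which pairs with either product, is far less similar at the base level, with 51.3% of coding bases identical to Tlr1 and 52.3% to Tlr6, and no 50-base word of Tlr2 occurs in another gene. No word of Tlr7, Tlr9, Tlr13, Cd14 or Ly96 is shared either. For Tlr3, 5.3% of words lie in Gm45542, an antisense gene that overlaps it by 698 bases, had at most 130 counts in any mouse and cannot be told apart from it where the strand was not used in counting. For Tlr4 the shared words made up 0.216%.

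The members spanned a wide range of levels. Cd14 was the most abundant, at 306 ± 33.2 nRPKM (SD, n = 7) in PS2APP;Trem2wt mice. Tlr2 followed at 112 ± 23.1 nRPKM, Tlr13 at 101 ± 11.9 nRPKM and Tlr7 at 73.5 ± 12.8 nRPKM. A middle group held Ly96 at 32.2 ± 5.17 nRPKM, Tlr4 at 26.5 ± 3.35 nRPKM, Tlr3 at 25.2 ± 4.11 nRPKM and Tlr1 at 20.4 ± 2.93 nRPKM. Tlr6 was at 10.9 ± 1.3 nRPKM. The levels of Tlr1 and Tlr6, and so their places in this order, may be too low because reads of shared words are left out. Tlr9, the receptor for CpG DNA, was the lowest at 0.917 ± 0.173 nRPKM, with between 109 and 479 counts per mouse, well above a floor of 3 counts. Within the PS2APP;Trem2wt mice, 7 of the 9 steps in this order differed from 0 by a two-sided exact sign-flip permutation test of the paired log2 levels (adjusted p between 0.0234 and 0.0402). With 7 mice the smallest p of this exact permutation test is 0.0156, reached whenever all mice share 1 direction, whatever the size of the step. The other 2 steps did not pass, from Tlr2 to Tlr13 (mean log2 difference 0.13, SD 0.32, exact permutation test, adjusted p = 0.312) and from Tlr4 to Tlr3 (0.08, SD 0.16, exact permutation test, adjusted p = 0.158).
In PS2APP;Trem2ko mice the mean of Tlr13 (101 nRPKM) was above that of Tlr2 (83.8 nRPKM), and Tlr3 (25.6 nRPKM) above Tlr4 (24.8 nRPKM). With 6 mice the smallest p of this exact permutation test is 0.0312, and no step in that group had an adjusted p at or under 0.05. The most variable member was Tlr9, with a coefficient of variation of 31.5% in PS2APP;Trem2ko mice, and the least variable was Tlr3 in the same mice, with 6.63%.

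**Figure D1:**
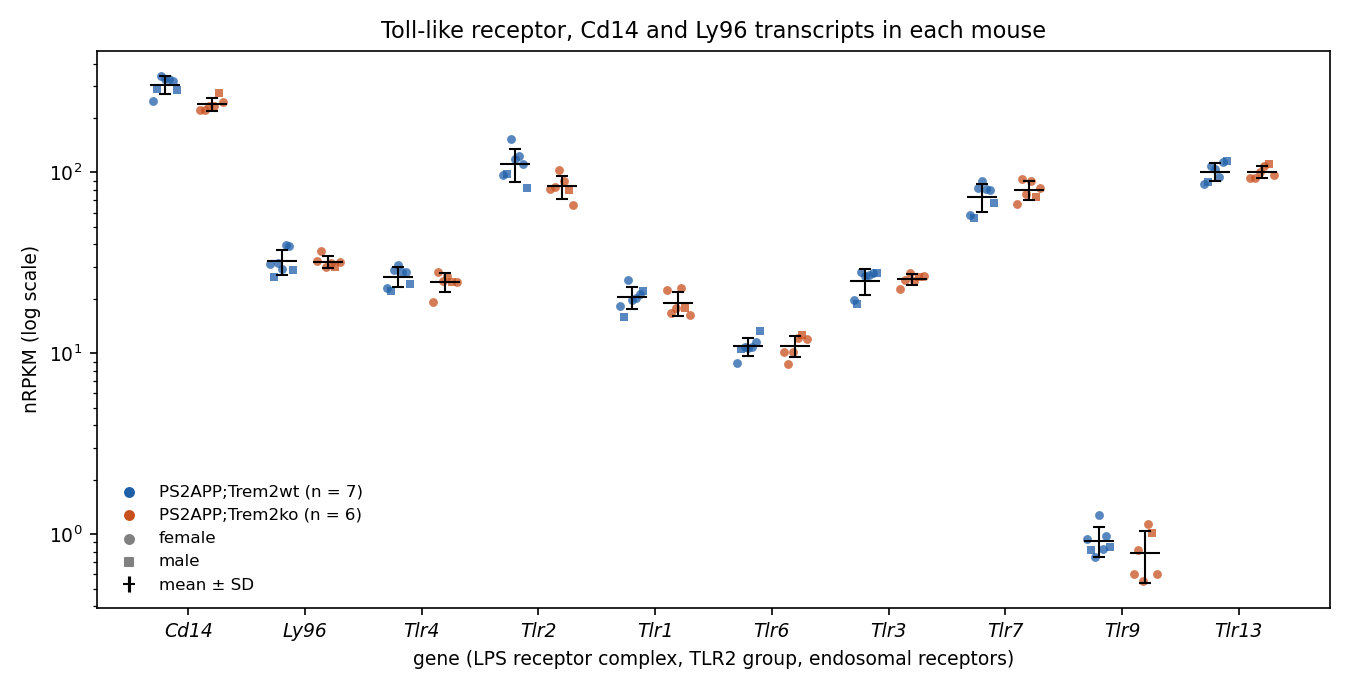
nRPKM of each gene on a log axis in 7 PS2APP;Trem2wt mice (blue) and 6 PS2APP;Trem2ko mice (orange), with circles for females, squares for males, and bars for the mean ± SD. Cd14 stands at the top and Tlr9 at the bottom, and Cd14 is the member whose genotypes lie furthest apart for their spread, with 5 of the 6 PS2APP;Trem2ko mice lower than any PS2APP;Trem2wt mouse.

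The LPS receptor was examined first. Cd14 was lower in PS2APP;Trem2ko cells, while its receptor Tlr4 and the TLR4 partner Ly96 did not pass the test. Cd14 lies on chromosome 18 of GRCm38 (36725067 to 36726798, minus strand), Tlr4 on chromosome 4 (66827584 to 66930284, plus strand) and Ly96 on chromosome 1 (16688051 to 16709611, plus strand). The Cd14 level in PS2APP;Trem2wt mice had a lowest value of 248, a median of 319 and a highest value of 341 nRPKM. In PS2APP;Trem2ko mice the lowest was 221, the median 233 and the highest 275 nRPKM. All but 1 of the PS2APP;Trem2ko mice were below the lowest PS2APP;Trem2wt mouse, and the exception was the male. Its mean fell to 238 ± 20.2 nRPKM (SD, n = 6) and the log2 fold change was -0.37 (SE 0.08, 95% interval -0.54 to -0.19, edgeR's quasi-likelihood test adjusted over all genes tested, adjusted p = 0.0306). That is 0.776 times the PS2APP;Trem2wt level, short of the 2-fold cutoff the study used.
The call stood close to its threshold. Over the alternatives the adjusted p of Cd14 ranged from 0.00117 to 0.0791, always with a lower level in PS2APP;Trem2ko mice. It was kept in 5 of the 13 edgeR fits that each left out a mouse, and it was lost without replicate 4, 5 or 6 of PS2APP;Trem2wt or replicate 1, 2, 3, 4 or 6 of PS2APP;Trem2ko (adjusted p between 0.0528 and 0.0791). The neutrophil marker sums given above moved in the same direction between genotypes as Cd14 and Tlr2, and their part in either difference was not tested.

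Tlr4 ranged from 22 to 30.9 nRPKM (median 28.2) in PS2APP;Trem2wt and from 19.2 to 28.1 nRPKM (median 25) in PS2APP;Trem2ko mice. The groups overlapped widely, with a log2 fold change of -0.09 (SE 0.10, 95% interval -0.31 to 0.12, edgeR, adjusted p = 0.724). Ly96, which encodes the LPS-binding subunit, ranged from 26.4 to 39.8 nRPKM (median 31.1) in PS2APP;Trem2wt and from 30 to 36.8 nRPKM (median 31.7) in PS2APP;Trem2ko mice. Its log2 fold change was -0.01 (SE 0.10, 95% interval -0.22 to 0.21, edgeR, adjusted p = 0.985). There were between 10.7 and 13.2 units of Cd14 nRPKM per unit of Tlr4 in PS2APP;Trem2wt mice (median 11.7) and between 7.85 and 11.6 in PS2APP;Trem2ko mice (median 9.56). The mean log2 ratio differed by -0.27 (PS2APP;Trem2ko minus PS2APP;Trem2wt) and the ratio lay below all PS2APP;Trem2wt mice in 4 of 6, but this did not hold after adjustment over the 5 ratios tested (two-sided exact permutation test, p = 0.0134, adjusted p = 0.067). Without PS2APP;Trem2ko replicate 1 or 5, or PS2APP;Trem2wt replicate 7, each left out in turn, the adjusted p was 0.05 or less, and over all alternatives it lay between 0.0189 and 0.138. The Ly96 to Tlr4 log2 ratio differed by 0.10 (exact permutation test, adjusted p = 0.418).

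Of the receptors for lipopeptides, Tlr2 was the member with the largest log2 fold change but did not pass the test over all genes, and Tlr1 and Tlr6 had small differences. Tlr2 (chromosome 3, 83836272 to 83841767, minus strand) in PS2APP;Trem2wt mice had a lowest value of 82, a median of 111 and a highest value of 154 nRPKM, and in PS2APP;Trem2ko mice 65.8, 82 and 103 nRPKM. Of the PS2APP;Trem2ko mice, 3 were below the lowest PS2APP;Trem2wt mouse, which was a male. The log2 fold change was -0.42 (SE 0.13, 95% interval -0.70 to -0.14, edgeR, unadjusted p = 0.00538, adjusted p = 0.123). DESeq2 called the same difference (log2 fold change -0.42, adjusted p = 0.0423), voom+limma did not (adjusted p = 0.113), and over all alternatives the adjusted p was between 0.0423 and 0.225. Both Cd14 and Tlr2 were among the 14.8% of all genes with an unadjusted p at or under 0.05, which took in 2 of the 10 members.
Tlr1 was between 15.9 and 25.3 nRPKM (median 20.3) in PS2APP;Trem2wt and between 16.3 and 22.9 nRPKM (median 17.8) in PS2APP;Trem2ko mice, a log2 fold change of -0.10 (SE 0.11, 95% interval -0.34 to 0.13, edgeR, adjusted p = 0.721). Tlr6 was between 8.81 and 13.2 nRPKM and between 8.74 and 12.6 nRPKM, a log2 fold change of 0.00 (SE 0.10, 95% interval -0.21 to 0.21, edgeR, adjusted p = 0.999). The ranges of the genotypes overlapped for both genes, whose counts leave out reads of the shared stretch shown above. There were 6.02 units of Tlr2 nRPKM per unit of Tlr1 in the median PS2APP;Trem2wt mouse and 4.29 in the median PS2APP;Trem2ko mouse, a difference of the mean log2 ratio of -0.31 (exact permutation test, adjusted p = 0.0867). The Tlr2 to Tlr6 log2 ratio differed by -0.41 (exact permutation test, adjusted p = 0.0867), and without PS2APP;Trem2wt replicate 7 both ratios passed (adjusted p = 0.0271).

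The endosomal receptors showed no difference past the test. Tlr7, a receptor for single-stranded RNA, was between 56.1 and 89.2 nRPKM (median 80) in PS2APP;Trem2wt and between 67.1 and 91.8 nRPKM (median 79) in PS2APP;Trem2ko mice, with a log2 fold change of 0.12 (SE 0.12, 95% interval -0.13 to 0.37). Tlr13, a receptor for bacterial ribosomal RNA, was between 86.4 and 115 nRPKM (median 104) and between 93.2 and 111 nRPKM (median 99.2), with a log2 fold change of -0.01 (SE 0.08, 95% interval -0.19 to 0.16). The gene for the double-stranded RNA receptor, Tlr3, was between 18.7 and 28.3 nRPKM (median 27.1) and between 22.8 and 27.7 nRPKM (median 25.9), with a log2 fold change of 0.02 (SE 0.10, 95% interval -0.20 to 0.24). For all 3 the ranges overlapped, and those of PS2APP;Trem2ko mice were the narrower ones. Tlr7 (167304929 to 167330558, minus strand) and Tlr13 (106143204 to 106160493, plus strand) are on chromosome X, Tlr3 is on chromosome 8 (45395665 to 45411080, minus strand) and Tlr9 on chromosome 9 (106222598 to 106226883, plus strand).
Tlr9 was between 0.747 and 1.27 nRPKM (median 0.851) in PS2APP;Trem2wt mice and between 0.548 and 1.14 nRPKM (median 0.711) in PS2APP;Trem2ko mice. Of the latter, 3 were below the lowest PS2APP;Trem2wt mouse, and the log2 fold change of -0.21 (SE 0.20, 95% interval -0.63 to 0.21) was the least precise of the members. The adjusted p of these endosomal receptors was between 0.669 and 0.962 in edgeR. The Tlr7 to Tlr9 log2 ratio was higher by 0.39 in PS2APP;Trem2ko mice and above all PS2APP;Trem2wt mice in 4 of 6 (exact permutation test, p = 0.0693, adjusted p = 0.0867).

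Of the 10 members, then, 1 was lower at an adjusted p at or under 0.05 in edgeR, where 1.53% of all tested genes were lower, and 0 were higher, where 0.503% were, for 2.04% of genes in either direction. Voom+limma called Cd14 alone and DESeq2 called Cd14 and Tlr2. With each member's normalized counts set against the other genotype, 0 of the 10 had no overlap between the groups, where 1.22% of genes lay entirely lower and 0.421% entirely higher in PS2APP;Trem2ko mice. The log2 fold change was negative in 7 members and positive in 3, with a median of -0.05, beside a median of 0.00 over all genes tested. With the 2-fold cutoff of the study, 0 members were called.

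**Figure D2:**
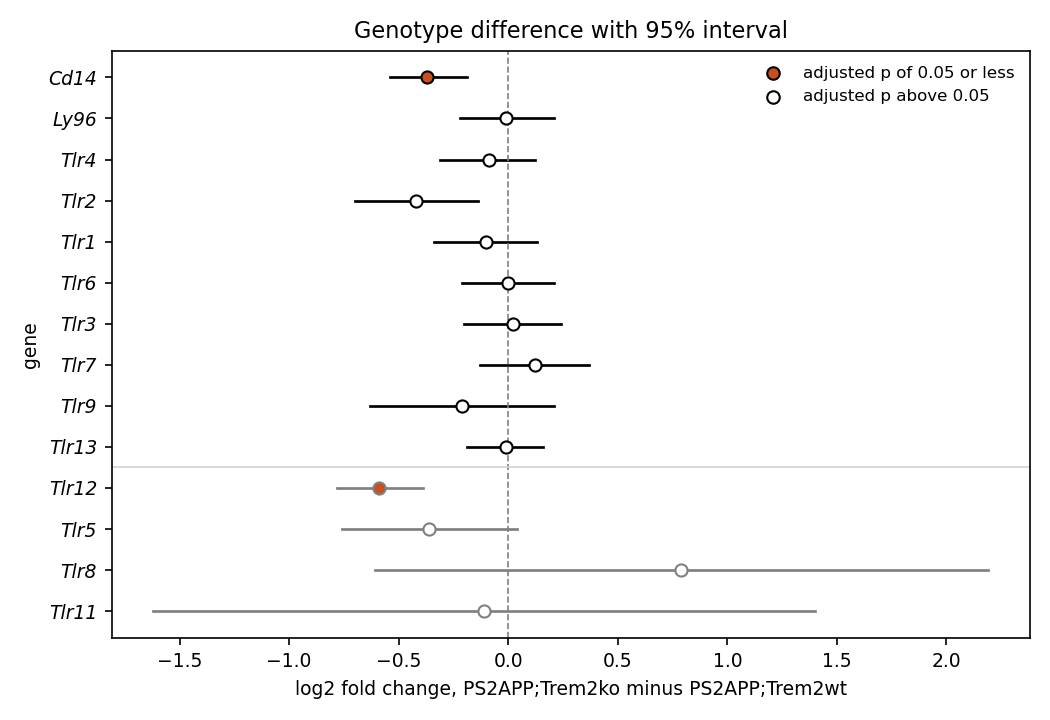
Log2 fold change between genotypes (horizontal axis, negative where lower in PS2APP;Trem2ko) with its 95% interval for the 10 members and, below the line, the 4 other Toll-like receptor genes, filled where the adjusted p was 0.05 or less in edgeR. Cd14 and Tlr12 are filled, the interval of Tlr2 (-0.70 to -0.14) lies below 0 without passing the adjusted test, and the intervals of Tlr8 and Tlr11 are the widest.

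The Toll-like receptor genes of the mouse outside the set are Tlr5, Tlr8, Tlr11 and Tlr12. Of these 4, 1 was lower at an adjusted p at or under 0.05 in edgeR, where 1.53% of all tested genes were. Tlr12, which recognises profilin of apicomplexan parasites, was between 17.7 and 26 nRPKM (median 23) in PS2APP;Trem2wt and between 13.3 and 17.7 nRPKM (median 15.1) in PS2APP;Trem2ko mice. Its mean fell from 22.8 ± 2.64 (SD, n = 7) to 15.2 ± 1.66 nRPKM (SD, n = 6) with a log2 fold change of -0.59 (SE 0.09, edgeR, adjusted p = 0.00245), and in 5 of the 6 knock-out mice it was lower than in any PS2APP;Trem2wt mouse. It was called in all 13 fits that left out a mouse and in all 9 other fits, with an adjusted p between 2.49e-07 and 0.00852. Tlr5, the flagellin receptor, had 3.95 ± 0.752 (SD, n = 7) and 3.07 ± 0.881 nRPKM (SD, n = 6) with a log2 fold change of -0.36 (SE 0.19, edgeR, adjusted p = 0.389). Tlr8 and Tlr11 were barely expressed, with means under those of Tlr9, as few as 4 counts of Tlr8 and 1 count of Tlr11 in a mouse, and log2 fold changes of 0.79 (SE 0.66) and -0.11 (SE 0.71).

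In 6 lists of other pathway genes, 1 of the 86 genes tested (1.16%) was called in edgeR, beside 2.04% of all genes, and 16 (18.6%) had an unadjusted p at or under 0.05, beside 14.8% of all genes. Among 18 genes for receptor folding, transport and accessory proteins, 17 could be tested and 0 were called in edgeR, voom+limma or DESeq2, with 2 at an unadjusted p at or under 0.05 in edgeR and a median log2 fold change of -0.04. This list ran from -0.88 (SE 0.42) for Cd36, a scavenger receptor that assists TLR2, to 0.11 (SE 0.09) for Slc15a4, an endolysosomal transporter that TLR7 and TLR9 need. The 6 TIR adaptors had 0 calls in edgeR, voom+limma or DESeq2, 1 unadjusted p at or under 0.05 and a median of 0.01, from Sarm1 at -0.16 (SE 0.27) to Ticam1, the adaptor of TLR3 and TLR4, at 0.29 (SE 0.12).
The 16 kinases and ubiquitin ligases close to the receptors had 4 unadjusted p-values at or under 0.05 in edgeR. Their median log2 fold change was 0.09, with 10 positive and 6 negative values. Of the 16, 1 was higher at an adjusted p at or under 0.05 in edgeR, where 0.503% of all tested genes were. This was Chuk, which encodes a catalytic subunit of the IκB kinase complex, at 18.1 ± 2.2 nRPKM (SD, n = 7) in PS2APP;Trem2wt and 23.7 ± 0.668 nRPKM (SD, n = 6) in PS2APP;Trem2ko mice. Its lowest PS2APP;Trem2ko mouse (23 nRPKM) was above its highest PS2APP;Trem2wt mouse (21.1 nRPKM). By normalized counts, 0.421% of all tested genes lay entirely higher in PS2APP;Trem2ko mice. The log2 fold change of Chuk was 0.38 (SE 0.08, edgeR, adjusted p = 0.0163), and 1.31% of its 50-base words occur in other genes. It was called in all 13 fits that left out a mouse and in the 9 others. The lowest of this list was Ikbke, an IκB kinase-related kinase, at -0.72 (SE 0.73). It was barely expressed, with means of 0.249 nRPKM in PS2APP;Trem2wt and 0.155 nRPKM in PS2APP;Trem2ko mice.
The 10 transcription factors had 0 calls in edgeR, voom+limma or DESeq2, 3 unadjusted p-values at or under 0.05 and a median of -0.00, from Nfkb2 at -0.34 (SE 0.14) to Irf7, an interferon regulatory factor, at 0.74 (SE 0.36). The 19 inhibitors had 0 calls in edgeR and voom+limma, 2 unadjusted p-values at or under 0.05 and a median of -0.01, from Tnip1 at -0.28 (SE 0.13) to Otulin, a deubiquitinase, at 0.26 (SE 0.07), and DESeq2 called Otulin. Of 20 LPS-inducible targets, 18 could be tested, 0 were called in edgeR or voom+limma and 4 had an unadjusted p at or under 0.05. Their median log2 fold change was 0.20, with 11 positive and 7 negative values, beside 8666 positive and 8420 negative over all genes tested. They ran from the chemokine Cxcl2 at -0.54 (SE 0.65) to Acod1, which makes itaconate, at 1.61 (SE 0.55), and DESeq2 called Acod1. Both genes were barely expressed. Mean levels in PS2APP;Trem2wt and PS2APP;Trem2ko mice were 0.182 and 0.566 nRPKM for Acod1 and 0.111 and 0.0787 nRPKM for Cxcl2. Some other genes of this list also had means below 1 nRPKM in PS2APP;Trem2wt mice. The 13 genes induced by cell handling summed to between 221 and 564 nRPKM in PS2APP;Trem2wt and between 239 and 692 nRPKM in PS2APP;Trem2ko mice. Their median log2 fold change was 0.23, with 10 positive and 3 negative values and 1 unadjusted p at or under 0.05 in edgeR. They ran from Atf3 at -0.33 (SE 0.09) to Fos at 1.54 (SE 0.86). In edgeR and voom+limma 0 were called, and DESeq2 called Atf3. The part of these handling genes in the values of the pathway lists was not tested.

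**Figure D3:**
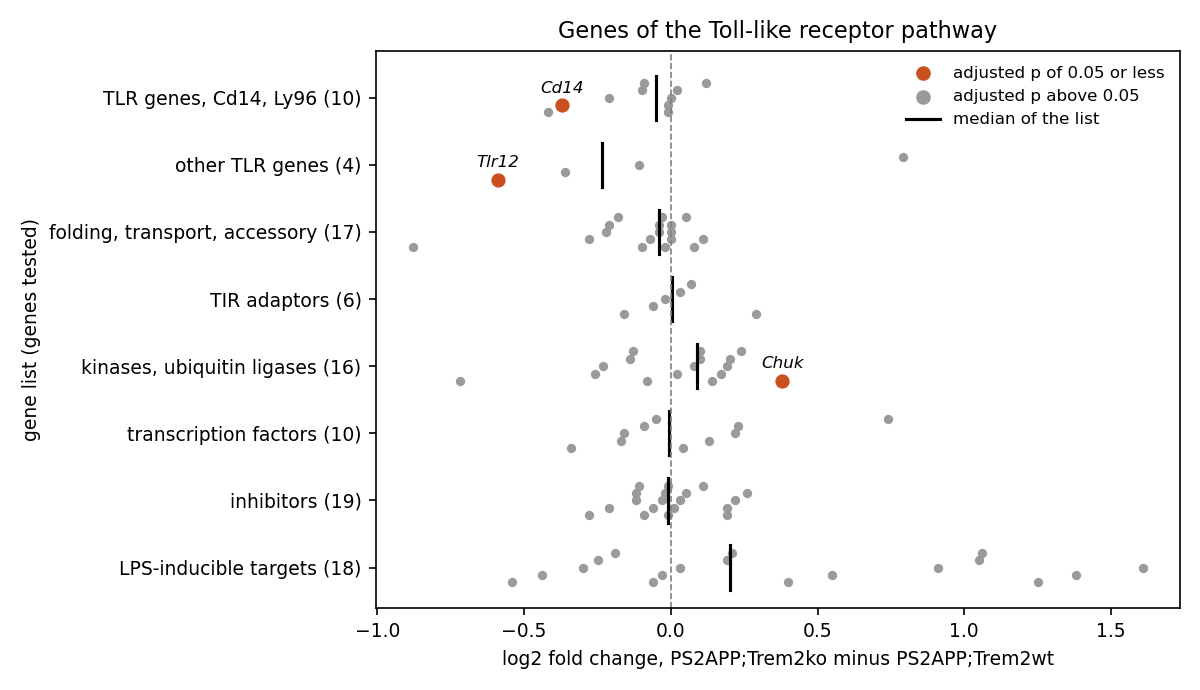
Log2 fold changes between genotypes (horizontal axis) for each tested gene of 8 lists, with a bar at each list's median and filled points where the adjusted p was 0.05 or less in edgeR. Cd14 and Tlr12 on the lower side and Chuk on the higher side are the 3 genes called. The LPS-inducible targets have the highest median of these 8 lists, 0.20, and the genes induced by cell handling (median 0.23) are not shown.

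Tlr7 and Tlr13 lie on the X chromosome, so the sexes were compared with genotype in the model. Among the 10 members, 0 differed between 10 females and 3 males at an adjusted p at or under 0.05 in edgeR, voom+limma or DESeq2, where 0.0234% of all genes did in edgeR. At an unadjusted p at or under 0.05 the count was also 0 in edgeR, where 6.95% of genes passed, and it was 1 in voom+limma and 2 in DESeq2. The lowest p among members was that of Ly96, at 28.4 nRPKM on average in males and 33.3 nRPKM in females (log2 fold change, males minus females, -0.23, SE 0.11, edgeR, unadjusted p = 0.058, adjusted p = 0.726). Tlr7 was at 56.1 and 67.9 nRPKM in the PS2APP;Trem2wt males and 72.8 nRPKM in the PS2APP;Trem2ko male, and between 58.3 and 91.8 nRPKM in females. The difference of -0.26 (SE 0.13, 95% interval -0.54 to 0.02) did not pass the test (edgeR, adjusted p = 0.734). For Tlr13 it was 0.07 (SE 0.10, edgeR, adjusted p = 0.898), and for Cd14, which is autosomal, 0.03 (SE 0.10, edgeR, adjusted p = 0.966). Tlr8, X-linked and outside the set, had 0.0303 and 0.157 nRPKM in the PS2APP;Trem2wt males and 0.021 nRPKM in the PS2APP;Trem2ko male, against between 0.0991 and 1.2 nRPKM in females, a log2 fold change of -2.49 (SE 0.76) that only DESeq2 called (edgeR, adjusted p = 0.713, DESeq2, adjusted p = 0.033). It was -4.26 without PS2APP;Trem2wt replicate 7 and -1.75 without PS2APP;Trem2ko replicate 5 (edgeR, adjusted p = 0.405 and 0.862).

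Mice of the same genotype also varied together in some members. Correlations were taken over the 13 mice on log2 CPM (counts scaled by library size) with each genotype's mean removed. Both values of a point come from 1 library and share its scaling, which removing the mean does not take out. None of 6 receptor partner relations held after adjustment, and the closest was that of Cd14 and Tlr4 (Pearson r = 0.57, permutation test, p = 0.0495, adjusted p = 0.297, and Spearman rho = 0.51, p = 0.0929, adjusted p = 0.48). Without the 2 mice farthest from the Cd14 median it was 0.66, and it was 0.83 within PS2APP;Trem2wt and 0.21 within PS2APP;Trem2ko mice, a difference that was not tested.
All 45 relations between members were then computed, a step added after the values were seen. Of these, 42 were positive, the median r was 0.39, and 2 held after adjustment over the 45. The shares among pairs of other genes were not computed, so these counts do not set the members apart. Tlr4 and Tlr7, on chromosomes 4 and X, had r = 0.92 (permutation test, p = 1e-05, the smallest that 100000 resamples can give, adjusted p = 0.00045) and rho = 0.95 (permutation test, p = 2e-05, adjusted p = 0.0009). It was 0.95 without the 2 mice farthest from the Tlr4 median, 0.93 in the 10 females, 0.99 within PS2APP;Trem2wt and 0.88 within PS2APP;Trem2ko mice. The mice with the least Tlr4 were PS2APP;Trem2ko replicate 1 (19.2 nRPKM) and PS2APP;Trem2wt replicates 2 and 1 (22 and 23.1 nRPKM), and their libraries held 120569609, 26120961 and 35201380 counts. Tlr6 and Tlr13 had r = 0.77 (permutation test, p = 0.00095, adjusted p = 0.0214) and rho = 0.82 (permutation test, p = 0.00045, adjusted p = 0.0101), and r = 0.60 without the 2 mice farthest from the Tlr6 median.
The genes whose levels followed Cd14 most closely over the 13 mice, among 11015 genes with a mean of at least 1 nRPKM, were Gcc1 (r = 0.94), Man1c1 (0.92), Fam129a (0.92), Itgb1 (0.92) and Nudt4 (0.91). Their log2 fold changes between genotypes were -0.33, -0.21, -0.36, -0.17 and -0.47, and their adjusted p-values in edgeR lay between 0.0966 and 0.487.

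**Figure D4:**
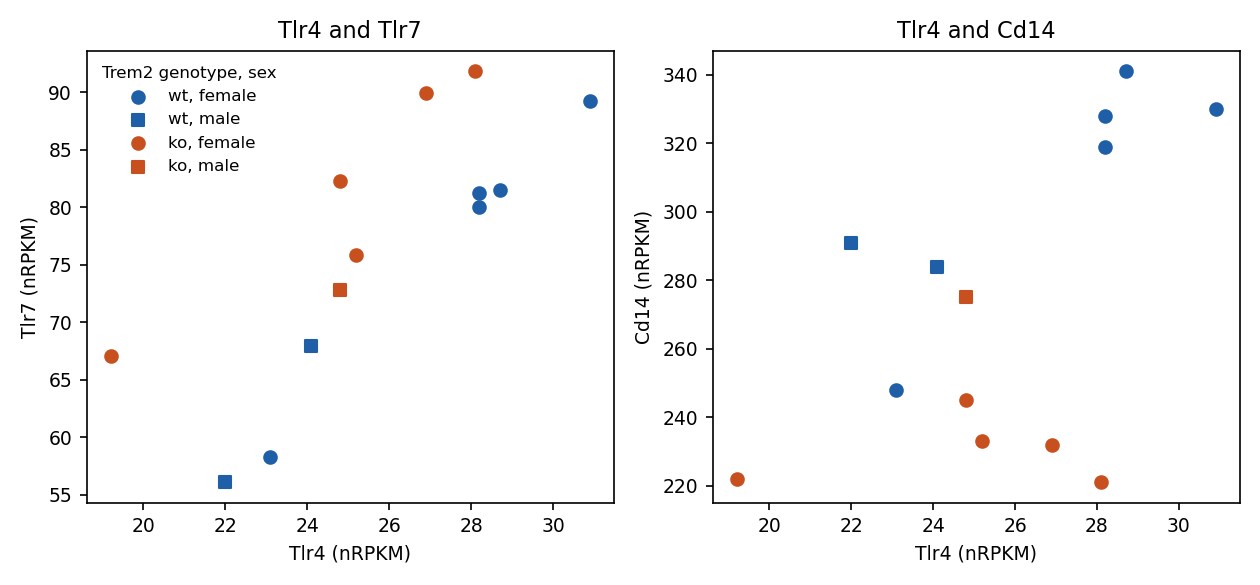
Each point is a mouse, with Tlr4 nRPKM on the horizontal axes, Tlr7 (left) or Cd14 (right) nRPKM on the vertical axes, and blue for PS2APP;Trem2wt and orange for PS2APP;Trem2ko mice. Tlr7 climbs with Tlr4 within each genotype (r = 0.99 and 0.88), and for Cd14 and Tlr4 r was 0.83 within PS2APP;Trem2wt and 0.21 within PS2APP;Trem2ko mice. These r values were computed on log2 CPM and not on the nRPKM plotted.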

How the data were processed

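RNA-Seq data of 13 mice were used, each a library of sorted brain myeloid cells. The authors prepared libraries with SMART-seq v4, sequenced 50-base single-end reads, aligned them to GRCm38 with GSNAP and deposited, per gene, counts of uniquely aligned reads, not normalized. They also deposited nRPKM, an RPKM adjusted by a size factor. Whether counting used the strand is not given in the sources used here. Gene names and positions are those of GENCODE M21 on GRCm38. The members, lists and tests were chosen with earlier results of these data known.

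Counts were tested with edgeR 4.0.16 in R 4.3.3 (filterByExpr by genotype, TMM, glmQLFit, glmQLFTest, no covariate), with p-values adjusted by the Benjamini-Hochberg method over 17086 genes. The study used voom+limma, an alternative here with limma 3.58.1, as were DESeq2 1.42.0, RLE scaling, no filter, limma on log2(nRPKM + 1) or log2(nRPKM + 0.1), females only, a minimum of 10 counts in 6 mice, a sex covariate, the 2-fold cutoff and leaving out each mouse. The fit was also run on simulated counts with known fold changes, whose results are not given here. Standard errors were derived from the F statistic as the size of the log2 fold change over its root. Depth was between 26120961 and 120569609 counts per mouse, and the floor of 3 counts covers counting error only. Ratios and levels were compared by exact permutation tests of log2 nRPKM, and correlations by 100000 resamples within genotype, using scipy 1.17.1, numpy 2.4.6 and pandas 2.3.3 (Python 3.11.15). No 2 libraries of a genotype agreed within sampling noise (chi-square at least 14.2 times its expected value over 36 pairs). Shared words are all 50-base stretches of a gene's transcripts found in transcripts of another gene. The labels give no batch or day, and the genotype pairs in which mice were mostly handled, by the study's methods, could not be used. Named genes are the members, Trem2, every gene of the pathway lists with an adjusted p at or under 0.05, the lowest and highest log2 fold change of each list, and the 5 genes most like Cd14. Tlr4 with Tlr7 and Tlr6 with Tlr13 were picked after their values were seen, and Tlr5, Tlr8 and Tlr11 complete the receptor family.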

Additional observations from a re-analysis of the deposited data

Results flagged for a closer look

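In 30 groups of 6 or 7 mice (10 levels and 5 ratios in each genotype), 2 had a mouse far from the rest by Dixon's 95% critical value, which chance does in about 1 of 20 groups. The log2 ratio of Ly96 to Tlr4 was 0.76 in PS2APP;Trem2ko replicate 1, the deepest library with 120569609 counts, and between 0.22 and 0.39 in the other mice of that genotype. The log2 ratio of Tlr2 to Tlr1 was 1.90 in PS2APP;Trem2wt replicate 7, a male, and between 2.40 and 2.63 in the other mice of that genotype.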

How the results depend on the processing

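The number of members called between genotypes was 1, and it was 2 with DESeq2, 0 with no filter, 0 with the 2-fold cutoff and between 0 and 1 with each mouse left out. Tlr1, Tlr2, Tlr4, Tlr7, Tlr9 and Cd14 kept their direction under all 22 alternatives. Differences near 0 changed sign: Tlr3 was -0.03 in females only and between -0.04 and 0.06 with a mouse left out, Tlr6 was -0.01 in voom+limma and between -0.05 and 0.06 with a mouse left out, and Ly96 was 0.01 in voom+limma and both limma fits on nRPKM, 0.00 with no filter and between -0.05 and 0.05 with a mouse left out. Tlr13 was between -0.05 and 0.02 between genotypes and between -0.01 and 0.19 between sexes with a mouse left out. Of the 5 ratios 0 passed, against between 0 and 3 with a mouse left out, the 3 being without PS2APP;Trem2wt replicate 7. Of the 9 steps in the order of levels, 2 did not pass in PS2APP;Trem2wt and 9 did not in PS2APP;Trem2ko mice, where the smallest p is 0.0312. Correlations past the test were 0 of 6 and, over the 45 relations added later, 2. The correlation of Tlr2 and Tlr6, -0.23, was 0.09 in females. No paired analysis was possible because the labels do not say which mice formed the pairs of 1 mouse per genotype in which, by the study's methods, most were handled up to sorting, so every fit leaves this pairing out. Only 3 males and few Tlr8, Tlr9 and Tlr11 counts limit the precision.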
